A study of Mus musculus with 4 samples.

Results

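Gm42418, Gm26917, AY036118 and Lars2 are mouse genes grouped here as ribosomal RNA (rRNA)-like transcripts. Gm42418, Gm26917 and AY036118 are annotated in or beside an rRNA-like locus, whereas no match of Lars2 to annotated rRNA was found. These 4 genes were selected on the uneven share of counts that Gm42418 took in the libraries. Of the 4, Gm42418, Gm26917 and Lars2 had a row among the 12067 genes of the count table, and AY036118 was not analysed here. The libraries were Quant-seq 3′ mRNA libraries, in which reverse transcription starts from stretches of A so that a transcript is counted near its 3′ end. They were made from KL cells (Lin-, cKit+, Sca-1-), a marrow fraction of committed myeloid progenitors, sorted as CD45.2+ donor cells 20 weeks after whole marrow had been given to irradiated CD45.1+ Ptprca recipients. There were 2 BcorΔE9-10 and 2 BcorWT libraries. All donors were Bcorfl/y, with loxP sites around exons 9 and 10 of their single X-linked copy of Bcor, a gene of a Polycomb repressive complex. The BcorΔE9-10 donors also carried scl-Cre-ERT, a tamoxifen-activated Cre driven by a stem cell enhancer of Tal1, while the BcorWT donors lacked Cre. The study's methods give tamoxifen to donors of both genotypes, and the host's own cells remained in the recipients beside the graft until the sort. Loss of exons 9 and 10 leaves the 3′ end of Bcor in place, so 3′ counts do not show the deletion itself. Their level can still differ, and the study lists Bcor among the factors whose expression changed in BcorΔE9-10 KL cells. The comparison of genotypes served to find which genes depend on Bcor in these progenitors. For rRNA-like transcripts it bears on how much of each library they took up and whether they moved together.

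Most RNA in a cell is rRNA. RNA polymerase I transcribes a long precursor in the nucleolus, in which an external spacer comes first, then the 18S rRNA of the small ribosomal subunit, and then, between internal spacers, the rRNAs of the large subunit. Spacers are cut off and degraded, in part by the RNA exosome. Mature rRNA carries no poly-A tail, whereas mitochondrial rRNA has short ones. Poly-A-primed libraries can still hold rRNA, since the primer can anneal to stretches of A inside a transcript.

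The 3 genes of chromosome 17 lie within a single rRNA-like locus, as the map of annotated transcripts shows. In GENCODE M21 on GRCm38 (mm10), Gm42418 (ENSMUSG00000098178) is a lincRNA at chr17:39846958-39848788 on the plus strand, and its transcript is 1831 bases long. From base 1 to base 1244, 67.9% of its length, it was the exact reverse complement of CT010467.1, an rRNA entry of 1849 bases annotated on the minus strand, and 587 further bases followed. RefSeq places Rn18s-rs5, a sequence related to 18S rRNA, at the same position and lists Gm42418 as its synonym. The stretch below, chr17:39848142-39848261 on the plus strand from GENCODE's transcript, shows that border. The capitals are the last bases shared with the rRNA entry, and they close with the end of 18S rRNA known from many species. The lower-case bases are where an internal spacer begins in a ribosomal repeat.
Gm42418 at the rRNA border: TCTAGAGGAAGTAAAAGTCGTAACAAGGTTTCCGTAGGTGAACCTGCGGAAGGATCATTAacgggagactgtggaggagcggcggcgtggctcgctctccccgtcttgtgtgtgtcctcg

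**Figure D1:**
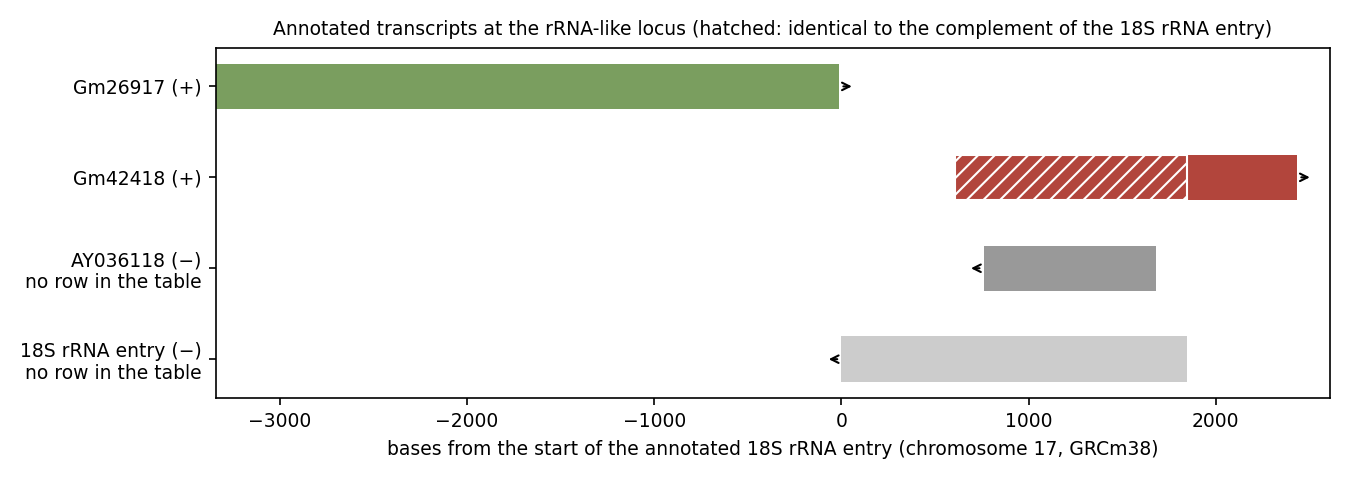
Annotated transcripts of the locus on chromosome 17 (GRCm38), as bars along the distance in bases from the start of the rRNA entry CT010467.1, with an arrow for the strand. The hatched 1244 bases of Gm42418 are identical to the complement of the rRNA entry, Gm26917 ends 11 bases before that entry, and AY036118 lies inside Gm42418 on the other strand.

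Gm26917 (ENSMUSG00000097971), a lincRNA of 3329 bases on the plus strand at chr17:39843013-39846341, ended 11 bases before the rRNA entry and 616 bases before Gm42418. This is the place of the external spacer in a ribosomal repeat. Its transcript had no match to the 356 annotated rRNA transcripts searched. Its G+C content was 69.1%, which 0.0659% of 9101 annotated lincRNA transcripts reached, against 60.2% for Gm42418 and 51.2% for Lars2. AY036118 (ENSMUSG00000105361), 923 bases on the minus strand at chr17:39847113-39848035, was the exact reverse complement of bases 156 to 1078 of Gm42418. The first 40 bases of AY036118 and the same positions of Gm42418 show the relation, each written 5′ to 3′ on its own strand.
AY036118, first 40 bases: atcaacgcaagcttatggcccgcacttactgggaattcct
Gm42418, the same positions: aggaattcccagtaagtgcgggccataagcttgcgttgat
Whether the counting used the strand is not given in the sources used here. Reads of Gm42418 and of genes on its other strand can then not be told apart, and reads of the many rRNA copies of the genome may have been placed at this locus or left out.

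Lars2 (ENSMUSG00000035202) is a protein-coding gene at chr9:123366927-123462666 on the plus strand and encodes the mitochondrial leucyl-tRNA synthetase, which charges tRNA for protein synthesis in the organelle. It had no match to the annotated rRNA transcripts searched. A stretch of 72 bases in the untranslated part of its last exon, chr9:123462048-123462119 and 370 bases after the stop codon, was 98.6% identical to Gm15564, an antisense gene on chromosome 16. The following 30 bases open the stretch, and they occur unchanged in Lars2, Gm15564 and AA474408, a gene on chromosome 7.
Lars2, Gm15564 and AA474408, shared: gaattcaccaagcgttggattgttcaccca
Both Gm15564 and AA474408 were picked for this match after the values had been seen. No sequence of the large-subunit rRNA was used here, so a match of this stretch to it was not tested.

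Because the libraries are primed from A stretches, the transcripts were searched for a run of 6 A and, in the last 60 bases, for AATAAA, the signal that precedes a normal poly-A tail. Each transcript was read on its own strand only. Gm42418 held a run of 6 A at base 210, shown here in capitals (chr17:39847140-39847199, plus strand), and no AATAAA near its end.
Gm42418, A run: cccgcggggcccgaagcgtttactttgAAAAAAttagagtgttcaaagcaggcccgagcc
Among 8195 transcripts within 10% of its length, 48.7% held such a run. In Gm26917 the longest run was 4 A and there was no AATAAA near the end. Lars2 held 2 runs of 6 A. Near its end it held AATAAA, in capitals below (chr9:123462635-123462664, plus strand), as did 41.1% of 58797 protein-coding transcripts, whereas 31.1% of the lincRNA transcripts did.
Lars2, last 30 bases: accattgaattAATAAAtgttgtgaaccat
These matches describe the sequences, and the table does not say where in a transcript the reads lay.

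The libraries held 5058140 and 6253100.5 counts for BcorΔE9-10 replicates 1 and 2, and 3825289.5 and 4992205 counts for BcorWT replicates 1 and 2. The BcorWT replicates stood further apart than the BcorΔE9-10 replicates, with a median absolute difference over all genes of 0.59 against 0.34 on the log2 scale. All 10 myeloid progenitor markers had a row and summed to between 0.983 and 1.44% of the counts of other genes. The 7 mature neutrophil markers summed to 8.09 and 17.7% in BcorΔE9-10 and to 11.7 and 15.5% in BcorWT, and S100a8 alone had 152116 counts or more in each library. Erythroid markers (5 of 8 with a row) were higher in BcorΔE9-10, at 0.00990 and 0.00831%, than in BcorWT, at 0.00243 and 0.00504%. B cell markers (2 of 6) summed to at most 0.00218%. Summed markers of eosinophils, basophils and mast cells (6 of 6 with a row) were lower in BcorΔE9-10, at 0.0339 and 0.0257%, than in BcorWT, at 0.0685 and 0.0732%. So were those of monocytes and dendritic cells (5 of 6), at 0.0910 and 0.0822% against 0.109 and 0.187%, a sum that rests mostly on Ly6c2, with 2320 and 3011 counts in BcorΔE9-10, and 1885 and 7253 in BcorWT. Not every marker of either list had this order. Ms4a2, of the eosinophil, basophil and mast cell list, had 65 and 50 counts in BcorΔE9-10, and 65 and 70 in BcorWT. Markers of T and NK cells (1 of 5), megakaryocytes (3 of 4) and stroma and endothelium (2 of 5) each stayed at or below 0.0286%. Over all single genes, the groups did not overlap for 16.8% with BcorΔE9-10 higher and for 17.1% with BcorΔE9-10 lower. Such an order is therefore common, and nothing is read from it for these sums. In bulk RNA, fewer cells of a type and less RNA per cell cannot be told apart. The labels say no more than that the replicates are separate samples, and the spread between them may be technical.

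Gm42418 was the most abundant gene in 3 of the 4 libraries and ranked 4 in BcorWT replicate 2. It had 825471 counts in BcorΔE9-10 replicate 1, 894612 in BcorΔE9-10 replicate 2, 1066451 in BcorWT replicate 1 and 71627 in BcorWT replicate 2. Its share of all counts was 16.3% and 14.3% in the BcorΔE9-10 libraries, 27.9% in BcorWT replicate 1 and 1.43% in BcorWT replicate 2. The highest and the lowest value were thus both in BcorWT, and both BcorΔE9-10 values lay between them. The group means were 15.3% ± 1.42 for BcorΔE9-10 and 14.7% ± 18.7 for BcorWT (SD, n = 2 each), so the means differed by far less than the spread between the BcorWT libraries. Counting error was small beside this, with a 95% Wilson interval of 1.42 to 1.45% for the lowest library. Such intervals leave out the amplification of molecules, for which no molecular identifiers are described.

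To keep the abundance of Gm42418 from shrinking every other value, levels were also given as counts per 1000000 counts of all genes other than Gm42418, Gm26917 and Lars2, called other-count CPM. On this scale Gm42418 was at 195104 and 167017 in BcorΔE9-10, 386805 in BcorWT replicate 1 and 14565 in BcorWT replicate 2. The BcorWT replicates differed 26.6-fold and the BcorΔE9-10 replicates 1.17-fold. On the log2 scale BcorWT replicate 1 was 4.73 above replicate 2, and 9 of the 12067 genes had a larger difference in that direction. Gm42418 was chosen on this unevenness, so a high rank follows from the choice and is only a description. The 0.22 between the BcorΔE9-10 replicates was exceeded by 65.5% of genes.

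Gm26917 was far lower than its neighbour. It had 1546 counts in BcorΔE9-10 replicate 1, 1902 in BcorΔE9-10 replicate 2, 1385 in BcorWT replicate 1 and 2690 in BcorWT replicate 2. These were 0.0306% and 0.0304% of the BcorΔE9-10 counts, and 0.0362% and 0.0539% of the BcorWT counts. The groups did not overlap, with both BcorΔE9-10 libraries below both BcorWT libraries, as for 17.1% of all genes. In other-count CPM its level was 365 and 355 in BcorΔE9-10, and 502 and 547 in BcorWT. In the BcorWT library where Gm42418 was lowest, Gm26917 was thus highest. The BcorWT replicates were 0.12 apart on the log2 scale, replicate 1 being the lower.

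Lars2 was the least abundant of the 3 genes, with 186 counts in BcorΔE9-10 replicate 1, 171 in BcorΔE9-10 replicate 2, 379 in BcorWT replicate 1 and 64 in BcorWT replicate 2. Its shares were 0.00368% and 0.00273% in BcorΔE9-10, 0.00991% in BcorWT replicate 1 and 0.00128% in BcorWT replicate 2. In other-count CPM this was 44.0 and 31.9 in BcorΔE9-10, 137 in BcorWT replicate 1 and 13.0 in BcorWT replicate 2. The order of the libraries was that of Gm42418, again with both extremes in BcorWT. The BcorWT replicates differed 10.6-fold and the BcorΔE9-10 replicates 1.38-fold. Of all genes, 61 had a larger rise from BcorWT replicate 2 to replicate 1 than the 3.36 of Lars2 on the log2 scale. That rank is likewise only a description, for a gene chosen with the values known.

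**Figure D2:**
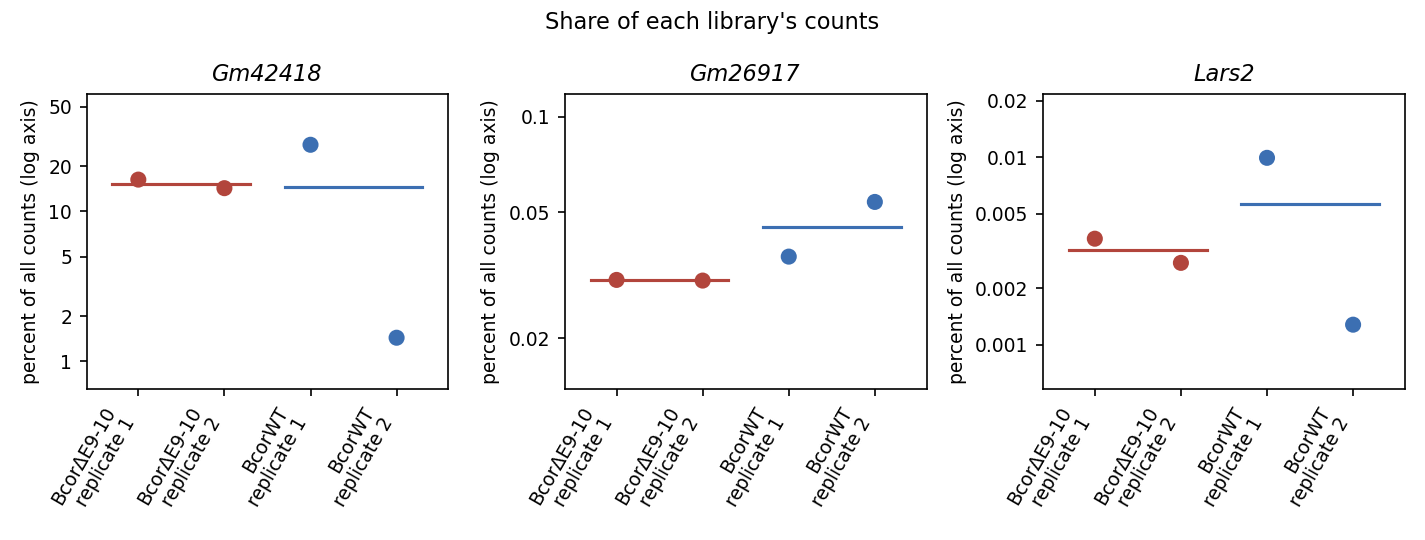
Percent of each library's counts taken by Gm42418, Gm26917 and Lars2, on log axes, with a point for each library and a line at the mean of each genotype (red, BcorΔE9-10; blue, BcorWT; n = 2 each). For Gm42418 and Lars2 the BcorWT points lie on either side of the BcorΔE9-10 points, from 1.43 to 27.9% for Gm42418, while for Gm26917 both BcorΔE9-10 points lie below both BcorWT points, as for 17.1% of all genes.

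Together the 3 genes took 16.4% and 14.3% of the BcorΔE9-10 counts, 27.9% of the counts of BcorWT replicate 1 and 1.49% of those of BcorWT replicate 2, nearly all of it Gm42418. Without them 83.6% and 85.7% of the BcorΔE9-10 counts were left, and 72.1% and 98.5% of the BcorWT counts. The level of any other gene as a share of all counts therefore changed by 0.45 on the log2 scale, or 1.37-fold, between the BcorWT replicates when the 3 genes were taken out of the totals. Between the BcorΔE9-10 replicates the change was 0.03. Between the genotype means it was -0.01 (BcorΔE9-10 minus BcorWT), since the high and the low BcorWT library balanced each other. The TMM factors of edgeR, which scale libraries on genes of ordinary change, moved from 0.895 to 1.06 in BcorWT replicate 1 and from 1.06 to 0.897 in BcorWT replicate 2 when the 3 genes were left out. In BcorΔE9-10 they moved from 1.07 to 1.08 and from 0.981 to 0.976. A TMM factor acts multiplied by its library total, and the totals fell too. In BcorWT replicate 1 the total went from 3825289.5 to 2757074.5 counts, and in BcorWT replicate 2 from 4992205 to 4917824. The factors alone thus do not show how far the scaling of the libraries moved.

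The 3 genes did not vary as 1 group. For each Lars2 count there were 4438 and 5232 Gm42418 counts in BcorΔE9-10, 2814 in BcorWT replicate 1 and 1119 in BcorWT replicate 2, a 4.67-fold range. For each Gm26917 count there were 534 and 470 Gm42418 counts in BcorΔE9-10, 770 in BcorWT replicate 1 and 26.6 in BcorWT replicate 2, a 28.9-fold range. Gm42418 and Gm26917, though neighbours in the locus, were therefore in the most unequal ratio. With 4 libraries no correlation was computed. Over all genes, 1988 (16.5%) were highest in BcorWT replicate 1 and lowest in BcorWT replicate 2, the order that Gm42418 and Lars2 share, so the order by itself is common.

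To rank genes by likeness, the distance between a gene and Gm42418 was taken over the 4 libraries, on log2 other-count CPM from which the gene's own mean had been subtracted, among 11844 genes with a mean of at least 10 counts. Lars2 lay at a distance of 1.75, with 122 genes nearer, and Gm26917 at 3.88, with 8728 genes nearer. The nearest 6 genes were Stard6 (0.20), Gm13815 (0.39), Gm16726 (0.56), Gm7729 (0.58), Gm12380 (0.59) and Gm19777 (0.66). Stard6, which encodes a lipid-transfer protein, had 27, 31, 39 and 0 counts in BcorΔE9-10 replicates 1 and 2 and BcorWT replicates 1 and 2. Gm13815, a processed pseudogene, was the one with high counts, at 712, 607, 911 and 69 in the same order. Of the other four, Gm12380 and Gm19777 are also processed pseudogenes, Gm7729 is an unprocessed pseudogene and Gm16726 an antisense transcript. Their mean levels were low, and each had from 0 to 3 counts in BcorWT replicate 2.

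**Figure D3:**
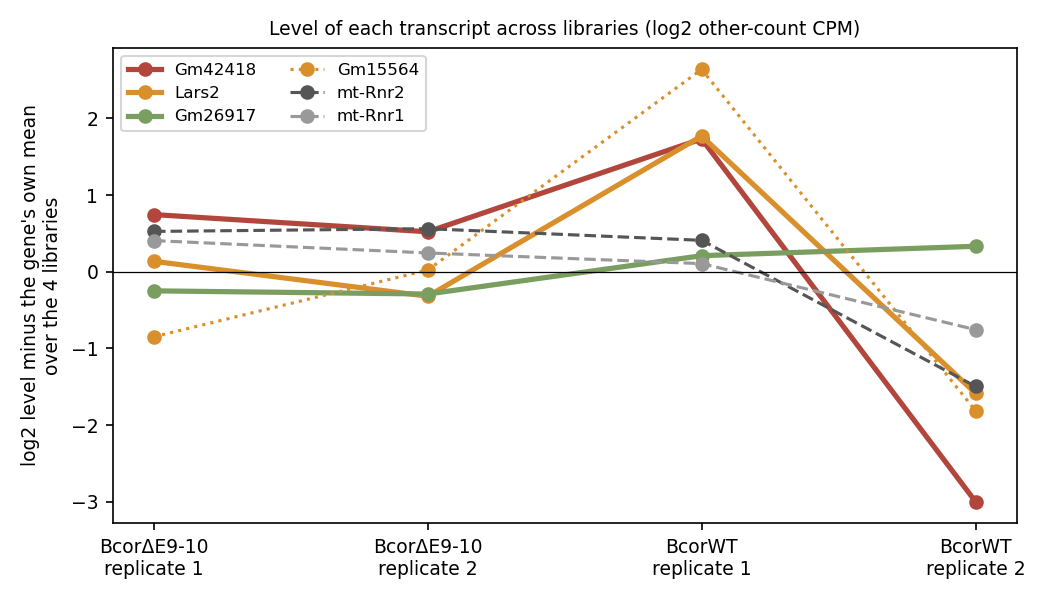
Log2 other-count CPM of each transcript, minus its mean over the 4 libraries, for Gm42418, Lars2, Gm26917, Gm15564 and the mitochondrial rRNAs mt-Rnr1 and mt-Rnr2. Gm42418, Lars2 and Gm15564 peak in BcorWT replicate 1 and fall to their lowest point in BcorWT replicate 2, while Gm26917 is nearly flat with its highest point in BcorWT replicate 2.

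The genes that share the stretch with Lars2 were read next. Gm15564 had 22 and 53 counts in BcorΔE9-10, 174 in BcorWT replicate 1 and 12 in BcorWT replicate 2. The BcorWT replicates differed by 4.45 on the log2 scale, close to the 4.73 of Gm42418, but the BcorΔE9-10 libraries differed by 0.87. AA474408 had 24 and 25 counts in BcorΔE9-10, and 45 and 23 in BcorWT. Its BcorWT replicates were 1.71 apart on the log2 scale, again with replicate 1 the higher.

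The mitochondrial rRNAs, which carry short tails and come from another genome and another polymerase, were lowest in the same library. mt-Rnr2, of the large mitochondrial subunit, had 7149 and 7327 other-count CPM in BcorΔE9-10, 6596 in BcorWT replicate 1 and 1761 in BcorWT replicate 2. mt-Rnr1, of the small subunit, had 2776 and 2483 in BcorΔE9-10, and 2254 and 1240 in BcorWT. Neither was raised in BcorWT replicate 1, where Gm42418 and Lars2 were highest. Both together were 0.992% and 0.981% of the other counts in BcorΔE9-10, 0.885% in BcorWT replicate 1 and 0.300% in BcorWT replicate 2. The other 29 mitochondrial genes summed to 0.532% and 1.04% in BcorΔE9-10, and to 1.10% and 0.941% in BcorWT, a sum that mt-Co2 and mt-Co3, low in BcorΔE9-10 replicate 1, weigh on. Taken singly, 11 of the 29 were lowest in BcorWT replicate 2, 8 in BcorWT replicate 1, 9 in BcorΔE9-10 replicate 1 and 1 in BcorΔE9-10 replicate 2. Among the 11, mt-Nd1, a subunit of respiratory complex I, had 732 and 707 other-count CPM in BcorΔE9-10, and 651 and 471 in BcorWT.

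By annotated class, snoRNAs, which guide the modification of rRNA, took 0.130% and 0.128% of the other counts in BcorΔE9-10, 0.129% in BcorWT replicate 1 and 0.0769% in BcorWT replicate 2. The 34 miRNA entries took 0.360% and 0.264% in BcorΔE9-10, and 0.319% and 0.166% in BcorWT. Protein-coding genes took 90.3% and 91.7% in BcorΔE9-10 and 91.0% and 93.1% in BcorWT. The library with the least Gm42418 thus also had the smallest shares of mitochondrial rRNA, snoRNA and miRNA entries and the largest share of protein-coding counts. Of 25 annotated classes, 11 were lowest in BcorWT replicate 2, 8 in BcorΔE9-10 replicate 2, 5 in BcorΔE9-10 replicate 1 and 1 in BcorWT replicate 1. Mitochondrial tRNAs were lowest in BcorΔE9-10 replicate 1, lincRNAs in BcorΔE9-10 replicate 2 and scaRNAs in BcorWT replicate 1. Whether these shares bear on the level of Gm42418 was not tested. Transcripts of RNA polymerase III differed among themselves. Rn7s1, a gene for the RNA of the signal recognition particle, had 368 and 240 other-count CPM in BcorΔE9-10, 455 in BcorWT replicate 1 and 73.6 in BcorWT replicate 2, so its highest and lowest libraries were those of Gm42418. Rn7s2, another gene for that RNA, had 4.25 and 1.49 in BcorΔE9-10, 5.44 in BcorWT replicate 1 and 46.2 in BcorWT replicate 2. Whether the counting split reads between these genes was not tested. Rn7sk had 153 and 105 in BcorΔE9-10, and 159 and 106 in BcorWT, and Rpph1 had 9.69 and 12.7 in BcorΔE9-10, and 22.1 and 19.3 in BcorWT.

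**Figure D4:**
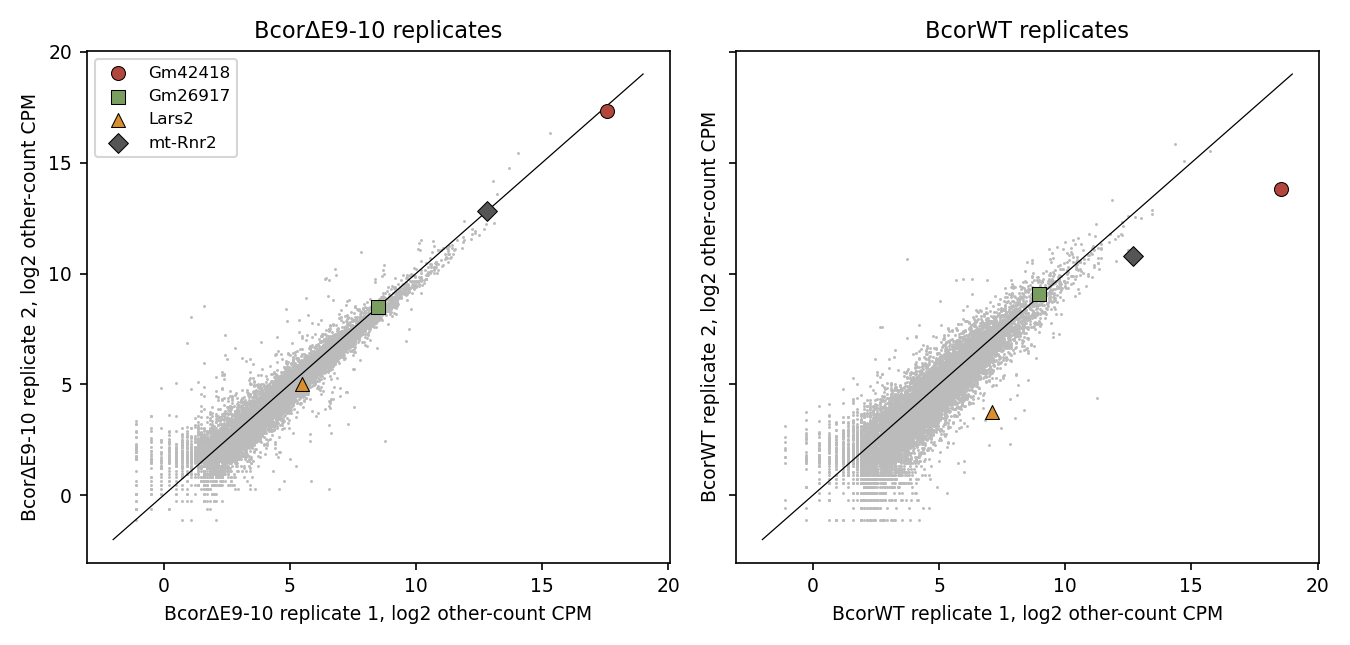
Log2 other-count CPM of every gene in replicate 2 against replicate 1, for BcorΔE9-10 (left) and BcorWT (right), with the line of equal level and with Gm42418, Gm26917, Lars2 and mt-Rnr2 marked. All 4 lie near the line in BcorΔE9-10, whereas in BcorWT Gm42418 (4.73 higher in replicate 1), Lars2 (3.36) and mt-Rnr2 (1.91) lie below it and Gm26917 stays on it.

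Between genotypes the fit across all genes gave the following differences, shown as descriptions with no test, because the genes were chosen by their measured values in these libraries. For Gm42418 the log2 fold change of BcorΔE9-10 against BcorWT was -0.12 (standard error 1.09). It was 3.46 without BcorWT replicate 1 and -1.06 without BcorWT replicate 2, so the sign depended on which BcorWT library was kept. limma-voom, which averages logarithms, gave 1.16. For Lars2 it was -0.97 (standard error 0.81), with 1.36 without BcorWT replicate 1 and -1.83 without BcorWT replicate 2. For Gm26917 it was -0.61 (standard error 0.32), with a range of -0.77 to -0.44 over the fits without 1 library. Gm26917 was the 1 gene of the 3 whose groups did not overlap, at 286 and 310 TMM-scaled CPM (counts per 1000000) in BcorΔE9-10 and 404 and 506 in BcorWT. Over all genes, 17.1% did not overlap with BcorΔE9-10 lower and 16.8% with BcorΔE9-10 higher, and nothing is read from the single gene.

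The genes that make and handle rRNA were read from lists of known factors. In edgeR's quasi-likelihood fit with Benjamini-Hochberg adjustment over all genes, 2 genes (0.0166%) had an adjusted p under 0.05, against 4 (0.0331%) in limma-voom and 43 (0.356%) in DESeq2. At an unadjusted p under 0.05, 1.34% of genes were higher and 3.07% lower in BcorΔE9-10, and the median log2 fold change over all genes was -0.03. Of 20 RNA polymerase I genes, which include the enzyme's subunits and its initiation factors, 0 had an adjusted or an unadjusted p under 0.05, and limma-voom and DESeq2 also called 0. The median was 0.05, with 13 genes above 0 and 7 below. Twistnb, a subunit of the enzyme, was at 0.73 (standard error 0.35) and Tcof1, the nucleolar factor treacle, at -0.60 (standard error 0.30), both with an edgeR adjusted p of 0.945.

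Of 64 rRNA processing genes measured, 0 passed either threshold in edgeR, and limma-voom and DESeq2 called 0 after adjustment. The median was 0.11, with 37 genes above 0 and 27 below. Riok1, a kinase of small-subunit maturation, was at 0.68 (standard error 0.32), and Utp14a, a component of the small-subunit processome, at 0.69 (standard error 0.37). Without BcorWT replicate 1, a fit in which BcorWT is 1 library assumed to vary like the BcorΔE9-10 libraries, 4.94% of all genes were called. In that fit 1 gene of this list was called, Rpf1, a factor of large-subunit assembly, at 2.28 with an edgeR adjusted p of 0.0167, and nothing is read from it.

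Of 18 genes of the RNA exosome and its cofactors, which trim rRNA and degrade spacer fragments, 0 passed either threshold in edgeR, and 0 passed after adjustment in limma-voom and DESeq2. The median was 0.25, with 11 genes above 0 and 7 below. Exosc5 had 598 and 430 counts in BcorΔE9-10, and 424 and 1181 in BcorWT. Its log2 fold change was -0.94 (standard error 0.41), with an edgeR adjusted p of 0.945. Without BcorWT replicate 1 the p was 0.0497, in the same fit that rests on 1 BcorWT library and called 4.94% of all genes. Exosc1 was at 0.86 (standard error 0.38, edgeR adjusted p = 0.945). The exosome subunits thus lay on both sides of 0.

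Lars2 encodes a tRNA synthetase of the mitochondrion, and a list of 18 other such genes was read without it. In this list 0 genes passed either threshold in edgeR, and 0 passed after adjustment in limma-voom and DESeq2. The median was -0.31, with 6 genes above 0 and 12 below. Kars, the lysine enzyme shared by cytosol and mitochondrion, was at -0.48, with 41.2 and 42.2 TMM-scaled CPM in BcorΔE9-10, and 56.4 and 59.7 in BcorWT. Iars2, the isoleucine enzyme, was at 0.49, with 36.4 and 32.4 TMM-scaled CPM in BcorΔE9-10, and 30.1 and 19.01 in BcorWT. On the same scale Lars2 had 111 and 12.0 in the BcorWT replicates, further apart than either enzyme.

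A list of 44 measured genes held structural and nuclear RNAs, such as small RNAs of RNA polymerase III and the nuclear transcript Malat1. It also held every mitochondrial gene with a row, that is rRNAs, tRNAs and protein-coding mRNAs. Of the 44, 0 had an edgeR adjusted p under 0.05. limma-voom called 0, and DESeq2 called 3 (Gm10800, Gm10801 and Rn7s2), where it called 0.356% of all genes. At an unadjusted p under 0.05 in edgeR, 0 of the 44 were higher and 6 lower, where 1.34% of all genes were higher and 3.07% lower. The median was -0.01, with 21 above 0 and 23 below. Gm10800 had 105 and 96 counts in BcorΔE9-10, and 1021 and 424 in BcorWT. Its log2 fold change was -3.43 (standard error 0.62), with an adjusted p of 0.419 in edgeR and 4.50e-07 in DESeq2. Gm10801 had 42 and 36 counts against 291 and 110, at -2.94 (standard error 0.65), with an adjusted p of 0.717 in edgeR and 0.00113 in DESeq2. Both were lower in each BcorΔE9-10 library than in either BcorWT library, as were 17.1% of all genes. The list was chosen with earlier results of these data known, and both genes were named for having its smallest p. Their adjusted p values are therefore no independent test of either gene. Malat1, an abundant nuclear RNA, was at -0.13 (standard error 0.33).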

How the data were processed

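Quant-seq 3′ mRNA libraries of sorted KL cells were analysed in 4 samples. The authors dropped low-quality reads, trimmed the rest (cutadapt), aligned them to mm10 (HISAT2) and counted them on genes (Subread featureCounts). The deposited values are counts per gene without normalization. In BcorΔE9-10 replicate 2 and BcorWT replicate 1 the deposited value of Gm4430 is not whole, so the unit of both libraries was taken to be expected counts, which were rounded. The annotation, the strand setting and the filter behind the table are not given in the sources used here, so counts of reads that fit several rRNA copies depend on settings that are not known.

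The genes, and the lists of related factors, were chosen with earlier results of these data known. Mpp6, an alias on the exosome list, names another gene in mouse and was left out. The fit was edgeR 4.0.16 in R 4.3.3 (filterByExpr, which removed 0 genes, TMM scaling, quasi-likelihood F test, prior count 0.125, Benjamini-Hochberg adjustment), with all 4 libraries and no covariate. Alternatives were DESeq2's size factors, at least 10 counts in every library, no filter, a replicate block, limma-voom (limma 3.58.1), DESeq2 1.42.0, the genes left out of the totals, and each library left out. List genes were named as the 2 with the smallest p per list; genes most like Gm42418 as the nearest 6. Other genes were named after their values were seen. Log2 other-count CPM used a prior count of 2. Standard errors are the log2 fold change over the square root of F. A count of 3 corresponds to between 0.480 and 0.784 CPM. Symbols were matched to GENCODE M21 for 11953 genes (99.1%), and transcripts were compared with blastn 2.17.0 (word size 11, e-value 1e-10). On counts simulated for BcorΔE9-10 against BcorWT, edgeR recovered 128 of 199 changed genes (64.3%) among 11858, with 2 false among 130 calls.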

Additional observations from a re-analysis of the deposited data

How the results depend on the processing

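With 2 libraries per genotype, a spread rests on a single difference, a fit without 1 library assumes that the lone one varies like the other genotype, and BcorWT replicate 1 decides several values. The log2 fold change of Gm42418 ranged from -1.06 to 3.46 and that of Lars2 from -1.83 to 1.36 when each library was left out, both highest without BcorWT replicate 1, whereas Gm26917 ranged from -0.77 to -0.44. Other scalings, tools and a prior count of 2 gave -0.15 to 1.16 for Gm42418, -0.98 to -0.14 for Lars2 and -0.61 to -0.54 for Gm26917. Against the counts of other genes the mean share in BcorΔE9-10 became 18.1% for Gm42418, 0.0360% for Gm26917 and 18.1% for the 3 genes together. In BcorWT it became 20.1% for Gm42418 and 20.1% for the 3 together, so the order of the genotype means turned from BcorΔE9-10 higher (15.3 against 14.7%) to BcorWT higher, within the spread of the BcorWT libraries. Without mt- genes in the total the BcorΔE9-10 share of Gm26917 became 0.0310%. The number of genes called, 2 in edgeR, was 5 with at least 10 counts in every library, 14 with the replicate block, 4 with limma-voom and 43 with DESeq2, and from 6 to 596 when a library was left out (6 without BcorΔE9-10 replicate 1, 34 without BcorΔE9-10 replicate 2, 596 without BcorWT replicate 1, 30 without BcorWT replicate 2). Of the structural and nuclear RNAs, a list that includes mitochondrial mRNAs, 2 were called with the replicate block (Gm10800 and the mRNA mt-Atp8). DESeq2 called 3 (Gm10800, Gm10801 and Rn7s2), and 0 to 5 were called when a library was left out. The 5, without BcorΔE9-10 replicate 2, were all mitochondrial, and mt-Co2, mt-Co3 and mt-Atp6 summed to 0.0450% of other counts in BcorΔE9-10 replicate 1 against 0.346 to 0.501% elsewhere. For rRNA processing and for the exosome, 0 to 1 genes were called when a library was left out. The causes were not tested. The replicate block gave 1.20 for Gm42418, -0.60 for Gm26917 and -0.28 for Lars2. Deviations of libraries with the same number had a correlation of -0.08 over genes, and nothing says that the numbers pair the samples.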
